A study of Mus musculus with 16 samples.

Results

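The 4 libraries described here hold TCRα transcripts of lymph node (LN) CD8 T cells that were sorted for Vα3.2, and they were chosen by their labels, as 4 of the 16 libraries of the study. They form 2 groups of 2 libraries, Themis+/+ and Themis-/-, numbered 1 and 2 in each. The mice are C57BL/6 and both groups carry Foxp3-GFP, so Themis is the only difference that the labels name. In the paper, the Themis-/- mice derive from a Themis knockout line, whose name gives another strain beside B6, crossed to the Foxp3-GFP line. The Themis+/+ mice are that Foxp3-GFP line itself. Whether the lines differ at other loci was not tested. The labels give no age, treatment or time for these samples. The deletion of Themis was in the germline, so every cell of a Themis-/- mouse lacked it. The methods say that LN of several mice of a genotype were pooled before sorting, while the design text speaks of individual mice, so a library is called a sample here, and the spread between libraries may be partly technical. TCRα tables do not measure Themis, and the genotypes therefore rest on the labels. A label field gives another Vα number for the sorted cells than the subset field and the paper, which have Vα3.2.

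Themis is a T cell protein that tunes TCR signalling during selection in the thymus, where developing T cells are kept or lost by how strongly their receptor binds self peptide on MHC. The α chain is assembled by joining 1 of many V segments to 1 of many J segments. Nucleases trim both ends before joining, opening of the hairpin at an untrimmed end can leave a short palindrome (P nucleotides), and terminal transferase adds bases without a template (N nucleotides). The stretch across the joint encodes CDR3, the loop that lies over the peptide. A join with few added bases can arise in many cells and many animals.

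Vα3.2 is encoded by TRAV9N-3, which lies on chromosome 14 of GRCm38 at 53231433 to 53232102 where the annotation has a V gene segment of the TCRα locus. Its end from the conserved cysteine codon, which opens CDR3, is 13 bases long and is the same in TRAV9D-3 (52920443 to 52921112 of the same chromosome), so calls between these segments rest on bases of the joint. Sequences with TRAV9N-3 as best hit, ties with TRAV9D-3 included, were analysed. In the text, each CDR3 nucleotide sequence of a library is called a clone, and clones that encode the same residues form a clonotype. N nucleotides are the bases left after a match to both germline ends, and P nucleotides next to an untrimmed end are not counted among them.

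The germline end of TRAV9N-3 and the starts of the J segments of several clonotypes named in the text are shown first, since those CDR3s are read almost wholly from them.
TRAV9N-3 end: tgtgctgtgagca
TRAJ12 start: gggactggaggctataaagtggtcttt
TRAJ26 start: gaaataactatgcccagggattaaccttc
TRAJ33 start: tggatagcaactatcagttgatctgg
TRAJ21 start: tgtctaattacaacgtgctttacttc
TRAJ9 start: agcaacatgggctacaaacttaccttc
TRAJ6 start: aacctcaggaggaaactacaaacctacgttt

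Of the clonotypes found in all 4 libraries, the 6 largest by mean share of reads follow, each by its most-read CDR3 sequence, 5′ to 3′, with N and P nucleotides in capitals and germline bases in lower case. They are shown because they are the part of the repertoire that both genotypes used most.
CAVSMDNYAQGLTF: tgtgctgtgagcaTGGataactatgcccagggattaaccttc
Untrimmed TRAJ12 clonotype: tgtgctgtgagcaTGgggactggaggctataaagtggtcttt
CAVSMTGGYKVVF: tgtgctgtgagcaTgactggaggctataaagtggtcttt
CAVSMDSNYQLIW: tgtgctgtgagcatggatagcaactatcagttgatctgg
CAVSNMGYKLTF: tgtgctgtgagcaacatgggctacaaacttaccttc
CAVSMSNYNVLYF: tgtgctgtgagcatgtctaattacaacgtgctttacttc

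In 3 of these 6 sequences no base had been added. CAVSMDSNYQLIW is the whole TRAV9N-3 end followed by the whole TRAJ33 start, and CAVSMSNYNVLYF is the same with TRAJ21. The untrimmed TRAJ12 clonotype joins the whole V end to the whole TRAJ12 start through 2 P nucleotides. Only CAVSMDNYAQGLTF holds an N nucleotide, 1 base after the same P nucleotides.

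Clonotypes of a single genotype are shown for contrast. The 3 largest of those in both libraries of Themis+/+ and in neither library of Themis-/- are given first, then the 3 of Themis-/-, again by the most-read sequence. A clonotype of 15 residues is named by its J segment.
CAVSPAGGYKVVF, Themis+/+: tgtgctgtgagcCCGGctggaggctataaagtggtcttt
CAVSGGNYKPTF, Themis+/+: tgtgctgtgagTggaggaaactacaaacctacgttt
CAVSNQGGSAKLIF, Themis+/+: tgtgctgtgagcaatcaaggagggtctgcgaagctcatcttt
TRAJ6 clonotype, Themis-/-: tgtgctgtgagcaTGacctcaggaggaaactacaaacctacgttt
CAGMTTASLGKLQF, Themis-/-: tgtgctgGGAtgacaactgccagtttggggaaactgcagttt
TRAJ16 clonotype, Themis-/-: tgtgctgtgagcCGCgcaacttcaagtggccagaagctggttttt

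Of these 6, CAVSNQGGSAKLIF and the TRAJ6 clonotype have no N nucleotide, and the others have 1 to 4. In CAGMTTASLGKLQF the V end lost 6 bases, more than in the other CDR3s printed here. The printed sequences of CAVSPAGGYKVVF and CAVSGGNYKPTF were found in Themis+/+ library 2 alone, and that of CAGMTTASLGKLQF in Themis-/- library 2 alone. Other sequences encoded these clonotypes in the libraries numbered 1.

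The libraries held 23766 and 21570 reads in Themis+/+ and 25247 and 22047 in Themis-/-. TRAV9N-3 gave 78.0% and 58.3% of the reads in Themis+/+ and 75.7% and 48.9% in Themis-/-. Segments outside the TRAV9 family gave 0.122% to 0.317%, no read carried the invariant chain of NKT cells (TRAV11 with TRAJ18) or of MAIT cells (TRAV1 with TRAJ33), and TRDV segments had 0 to 2 reads. In the libraries numbered 2 of both genotypes, the related segment TRAV9-4 took 19.9% (Themis+/+) and 33.7% (Themis-/-) of the reads, against 1.13% and 1.56% in the libraries numbered 1. The libraries numbered 2 also held fewer TRAV9N-3 clonotypes, with 397 in Themis+/+ and 495 in Themis-/- against 966 and 1164. The values of both numbers are therefore given throughout, and the part of this difference in the results was not tested. With 2 libraries against 2, an exact permutation test cannot give a p below 0.333.

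The first question was whether the Vα3.2 chains of both genotypes are joined to the same J segments. All 43 J segments found passed the filter of 10 reads in 2 libraries. None was called between the genotypes (edgeR quasi-likelihood test, 0 of 43 at an adjusted p under 0.05, which is 0% in either direction), and the smallest adjusted p in edgeR was 0.876. With 2 libraries a genotype, segments that were not called are not shown to be used equally. Without adjustment 0 segments were under 0.05 by edgeR and 6 by DESeq2, which also called 0 after adjustment.

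The 6 J segments with the most clones were TRAJ12, TRAJ9, TRAJ22, TRAJ15, TRAJ23 and TRAJ6. TRAJ12 (54206553 to 54206610 of chromosome 14) was in 6.87% and 8.49% of the clones in Themis+/+ and in 5.82% and 6.42% in Themis-/-. TRAJ9 was in 6.78% and 6.60% against 7.20% and 6.98%. TRAJ22 was in 6.31% and 6.37% against 5.98% and 6.98%, and TRAJ15 in 6.50% and 5.66% against 6.05% and 5.85%. The libraries of the genotypes overlapped for TRAJ22 and TRAJ15, and lay apart by less than 1 percentage point at the nearest libraries for TRAJ12 and TRAJ9. TRAJ23 was in 5.20% and 5.42% of the clones against 4.98% and 4.53%. TRAJ6 was in 4.46% and 4.72% against 4.75% and 5.28%, where the Themis-/- libraries were higher, while by reads they were lower, with 5.54% and 5.34% against 3.76% and 3.57%. The log2 difference of TRAJ6 reads was -0.55 ± 0.28 (SE, edgeR adjusted p = 0.876), and that of TRAJ12 was -0.34 ± 0.18.

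**Figure D1:**
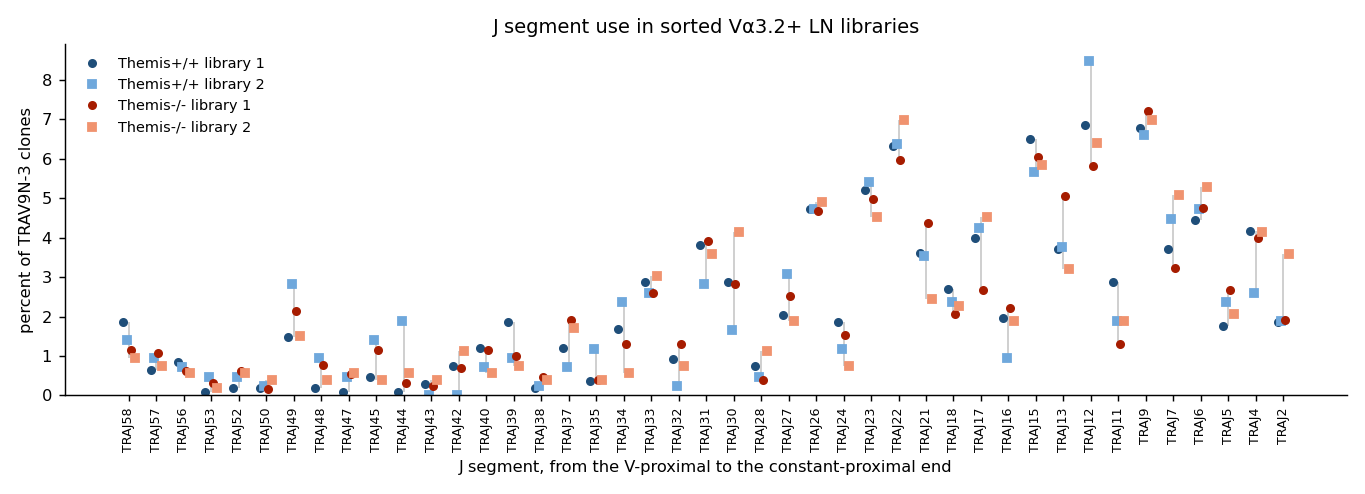
Percent of the TRAV9N-3 clones of each library that carry each of the 43 J segments, in the order of the locus from the V-proximal end (left) to the constant-proximal end (right). Each point is a library and the grey line spans the 4 libraries. The segments from TRAJ26 on hold most clones in all 4 libraries, and the points of both genotypes lie among each other.

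By reads, both Themis-/- libraries were above both Themis+/+ libraries for 6 of 43 segments (14%) and below them for 7 (16.3%). The 3 higher segments with the largest fitted difference were TRAJ43, TRAJ50 and TRAJ42, all of them rare. TRAJ43 had 24 and 0 reads in Themis+/+ and 33 and 80 in Themis-/-, from 3, 0, 3 and 2 clones. TRAJ50 had 42 and 6 reads against 60 and 60, from 1 or 2 clones a library. TRAJ42 had 64 and 0 reads against 95 and 55. A count of 0 in Themis+/+ library 2 allows up to 0.0238% of its TRAV9N-3 reads, taken as 3 reads. The 3 lower segments with the largest fitted difference were TRAJ34, TRAJ39 and TRAJ56. TRAJ34 took 1.33% and 1.95% of the reads in Themis+/+ and 0.895% and 0.306% in Themis-/-, a log2 difference of -1.41 ± 0.80 (SE, edgeR adjusted p = 0.876). TRAJ39 took 1.95% and 1.27% against 0.816% and 0.529%, and TRAJ56 0.814% and 0.469% against 0.455% and 0.306%. TRAJ34 rested on 18 and 10 clones against 17 and 3, so the lowest value came from 3 clones of Themis-/- library 2.

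The J segments were also taken in 6 blocks along the locus. The block TRAJ9 to TRAJ2, next to the constant region, held 22.7% and 22.6% of the clones in Themis+/+ and 23.8% and 27.2% in Themis-/-. TRAJ18 to TRAJ11 held 28.6% and 27.4% against 25.2% and 26.0%, and TRAJ28 to TRAJ21 24.5% and 24.8% against 24.4% and 22.6%. TRAJ47 to TRAJ37 held 6.13% and 6.37% against 7.43% and 6.42%. In these 4 blocks the libraries did not overlap, and the differences of the means ran from -2.35 to 2.77 percentage points (exact permutation test, p = 0.333 each, the smallest possible). By reads the libraries overlapped in all 6 blocks. TRAJ35 to TRAJ30 held 12.5% and 10.8% of the clones against 12.3% and 12.5%, and at the V-proximal end TRAJ61 to TRAJ48 held 5.48% and 8.02% against 6.82% and 5.28%. In the test by reads 0 segments were called in any block, and the median log2 difference of a block ran from -0.37 (8 segments, TRAJ61 to TRAJ48) to 0.48 (9 segments, TRAJ47 to TRAJ37), beside 0.07 over all 43. The mean distance of the J segment from TRAJ61 was 43.2 and 42.2 kb in Themis+/+ and 42.5 and 43.8 kb in Themis-/- (exact permutation test, p = 0.667).

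The second question was whether the joints themselves differ. N nucleotides were few in both genotypes. The mean was 2.43 and 2.18 bases per clone in Themis+/+ and 2.39 and 2.27 in Themis-/-. The difference of 0.0254 bases was smaller than the spread between the libraries of either genotype (SD 0.175 in Themis+/+ and 0.0858 in Themis-/-, n = 2 each, exact permutation test, p = 1). Clones without any N nucleotide made up 16.7% (95% Wilson interval 14.6 to 19.1) and 20.0% (16.5 to 24.1) in Themis+/+ and 16.2% (14.3 to 18.3) and 20.9% (17.7 to 24.6) in Themis-/-. Here the library number separated the values and the genotype did not. Intervals cover counting error alone, since PCR reads without molecular identifiers are not independent molecules.

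Trimming differed little. The V end had lost 1.67 and 1.70 bases on average in Themis+/+ and 1.78 and 1.63 in Themis-/-, and the J start 3.05 and 3.04 against 3.08 and 3.11. An untrimmed V end was found in 41.5% and 42.2% of the clones against 40% and 40.8%. The last 2 measures did not overlap between genotypes, with differences of 0.0471 bases from J and -1.48 percentage points (exact permutation test, p = 0.333 each). P nucleotides at the V end were in 30.4% and 32.3% of the clones against 30.1% and 31.1%.

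**Figure D2:**
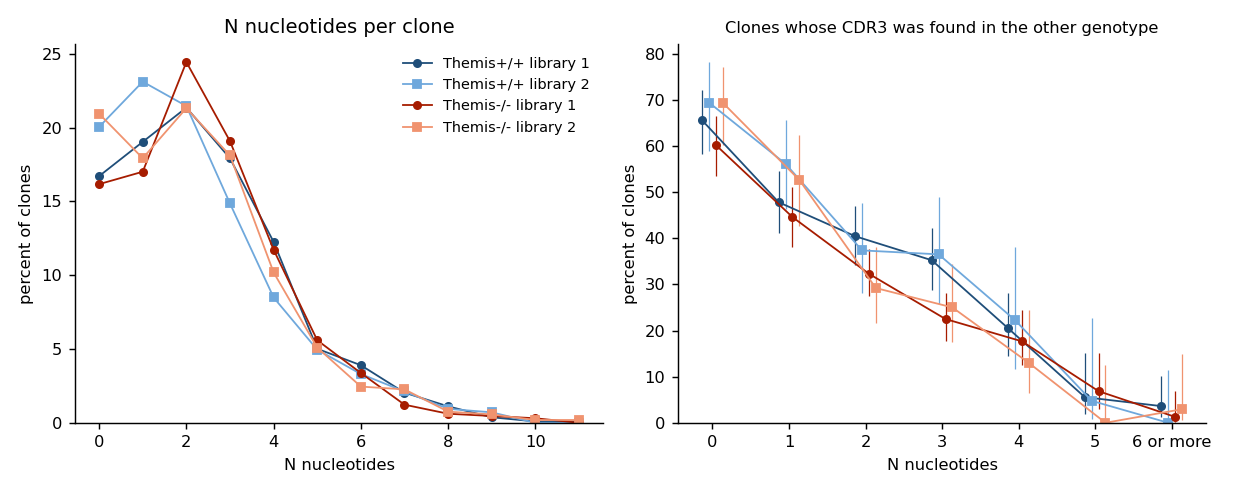
Left, percent of the clones of each library by their number of N nucleotides. Right, percent of the clones whose CDR3 amino acid sequence was found in a library of the other genotype, by N nucleotides, with 95% Wilson intervals. The left curves cross, while the right curves fall from between 60.2% and 69.4% without N to between 0% and 3.61% with 6 or more in all 4 libraries.

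CDR3 length did not differ in the mean, with 13.5 and 13.4 residues in Themis+/+ and 13.4 and 13.5 in Themis-/- (exact permutation test, p = 1). CDR3s of 14 residues were the commonest in all 4 libraries. They made up 34.9% (95% Wilson interval 31.9 to 37.9) and 32.5% (28.1 to 37.2) of the clonotypes in Themis+/+ and 28.4% (25.8 to 31.0) and 30.7% (26.8 to 34.9) in Themis-/-. Both Themis-/- libraries were lower, with a difference of the means of -4.16 percentage points (SD 1.69 in Themis+/+ and 1.67 in Themis-/-, n = 2 each, exact permutation test, p = 0.333, the smallest possible). The intervals of the libraries numbered 1 did not overlap, and those of the libraries numbered 2 did.

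The lengths on both sides of 14 residues were higher in both Themis-/- libraries. CDR3s of 13 residues made up 26.1% and 26.2% of the clonotypes in Themis+/+ and 27.7% and 27.3% in Themis-/-. CDR3s of 15 residues made up 14.9% and 13.9% against 16.2% and 15.4%, and those of 16 residues 3.21% and 3.02% against 4.04% and 4.65%. By reads the 14-residue share was 37.1% and 39.3% against 34.0% and 32.0%, again without overlap. With every V segment in place of TRAV9N-3 the difference was -2.94 percentage points and the libraries overlapped (exact permutation test, p = 0.667). By reads the 13-residue and 16-residue shares overlapped between genotypes.

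**Figure D3:**
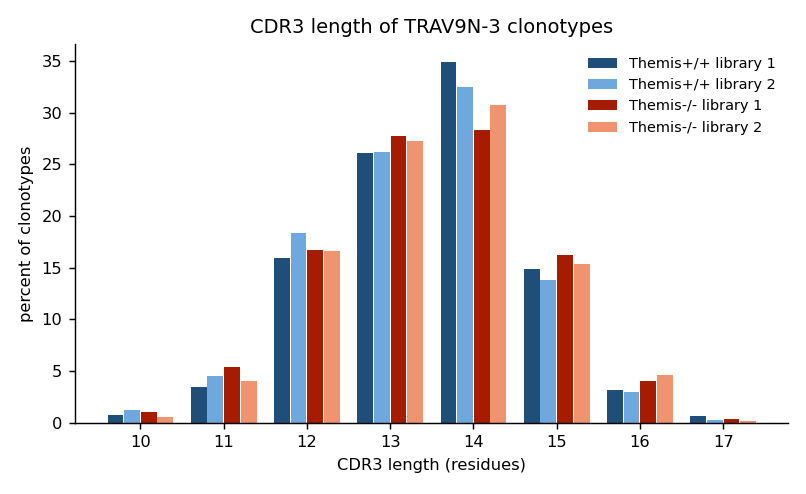
Percent of the TRAV9N-3 clonotypes of each library by CDR3 length in residues, 1 bar for each library. At 14 residues both Themis-/- bars (28.4% and 30.7%) are below both Themis+/+ bars (34.9% and 32.5%), and at 13, 15 and 16 residues they are above them.

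Residues were counted at positions 4 to 8, from 1 at the cysteine, in 13- and 14-residue CDR3s. The untrimmed germline V end codes for the first 4 residues, Cys-Ala-Val-Ser, and trimming can reach position 4. Later positions can be read wholly from J, as from position 6 on in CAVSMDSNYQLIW. Residue shares there therefore also depend on which J segments are used. Of 50 combinations of length, position and residue group, both Themis-/- libraries were higher in 8 (16%) and lower in 11 (22%). Of the 10 measures of hydrophobic residues (Ala, Cys, Phe, Ile, Leu, Met and Val) 5 were lower and 1 was higher. At position 4 of 13-residue CDR3s hydrophobic residues were in 12.3% and 11.5% of the clonotypes in Themis+/+ and 9.91% and 8.89% in Themis-/-. At position 8 they were in 12.7% and 14.4% against 18.9% and 17%. Weighted by reads, both measures overlapped between genotypes. They were 7.92% and 5.06% against 6.93% and 9.95% at position 4 and 7.09% and 16.4% against 14.1% and 14.3% at position 8. Hydrophobic residues at positions 4 and 6 of 14-residue CDR3s were lower by clonotypes and overlapped by reads. At position 7 of 13-residue CDR3s they were lower by clonotypes but higher by reads, at 12.26% and 9.85% against 12.97% and 15.87%. At position 6 they were lower both ways, at 5.58% and 6.01% against 5.35% and 3.82% by reads. At position 5 they overlapped by clonotypes and were lower by reads, at 49.28% and 57.03% against 44.48% and 48.49%. Negatively charged residues at position 6 of the same length were in 9.13% and 7.69% against 12.7% and 14.1%, the largest difference among the 50 measures whose libraries lay apart, at 4.97 percentage points. Each measure whose libraries lay apart has an exact permutation p of 0.333, the smallest possible.

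Hydrophobic residues at position 5 of 14-residue CDR3s did not separate the genotypes. They were in 53.4% and 62.0% of the clonotypes in Themis+/+ and 58.2% and 57.2% in Themis-/-, with a difference of the means of -0.00465 percentage points. Summed Kyte-Doolittle hydropathicity of 14-residue CDR3s, in which a higher sum is more hydrophobic, was 6.14 and 6.25 in Themis+/+ and 6.19 and 6.83 in Themis-/- (exact permutation test, p = 0.667). Leaving out Themis-/- library 2 gave a difference of -0.000652. Without sequences of 1 read the difference was 0.473 (exact permutation test, p = 0.333, the smallest possible). A cysteine inside the CDR3 was rare, in 0% and 1.01% of the clonotypes against 0.344% and 0.202%.

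Methionine was the commonest residue at position 5 and is visible in 5 of the 6 most shared CDR3s above, where it is coded by atg. It was in 24.5% (95% Wilson interval 21.9 to 27.3) and 26.4% (22.4 to 31.0) of the clonotypes in Themis+/+ and in 23.6% (21.3 to 26.1) and 25.7% (22 to 29.7) in Themis-/-. The genotypes overlapped. The last base of the V end is the a of this codon, and P nucleotides at that end start with tg. The V end was untrimmed in 94.2% and 95.4% of the clones with this methionine in Themis+/+ and 91.2% and 95.6% in Themis-/-. P nucleotides of 2 or more bases followed it in 88.1% and 83.3% against 85.0% and 85.3%. The clones with this methionine carried 31 to 41 different J segments a library. The shares of untrimmed and P ends rest on the matching rule. Where the V bases before it are intact, an atg codon there supplies the last base of the V end. Its tg then counts as P unless J supplies it. These shares therefore follow largely from the codon and cannot tell P from N nucleotides of the same bases.

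Clone sizes were compared next, and most measures of them overlapped between the genotypes. The largest clonotype held 0.906% (95% Wilson interval 0.779 to 1.05) and 3.52% (3.21 to 3.86) of the TRAV9N-3 reads in Themis+/+ and 5.29% (4.98 to 5.61) and 1.42% (1.21 to 1.66) in Themis-/-. The 10 largest held 7.56% and 14.5% against 14.5% and 10.6% (exact permutation test, p = 0.667), and the 171 and 74 largest clonotypes in Themis+/+ and the 171 and 101 largest in Themis-/- held 50% of the reads (exact permutation test, p = 1). Evenness, the Shannon entropy over its maximum, was 0.933 and 0.920 against 0.903 and 0.936. The share of clonotypes with over 100 reads did not overlap, with 1.76% and 3.53% in Themis+/+ against 1.20% and 1.21% in Themis-/- (exact permutation test, p = 0.333). The share of reads that these clonotypes held did overlap, with 11.8% and 17.8% against 16.9% and 7.05%. This cut is a raw count, and mean reads per clonotype differed, with 19.2 and 31.7 in Themis+/+ against 16.4 and 21.8 in Themis-/-.

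The largest clonotype was the same, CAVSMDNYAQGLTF, in library 2 of Themis+/+ with 443 reads and in library 1 of Themis-/- with 1010 reads. In the other libraries of these genotypes it had 150 and 93 reads. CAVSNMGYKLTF, which joins TRAJ9 without an added base, was the largest of Themis+/+ library 1 with 168 reads. It had 142 reads in each of the libraries numbered 2 and only 2 reads in Themis-/- library 1. Those 2 reads were of another nucleotide sequence, and the join without an added base had 0 reads there. A 15-residue clonotype of TRAJ22 was the largest of Themis-/- library 2 with 1.42% of the reads, and it held 0.140% and 0.493% in Themis+/+ and 0.696% in Themis-/- library 1. Each of these was present in all 4 libraries, and by share of reads the genotypes overlapped for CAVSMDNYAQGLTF and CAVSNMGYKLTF and did not for the TRAJ22 clonotype.

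**Figure D4:**
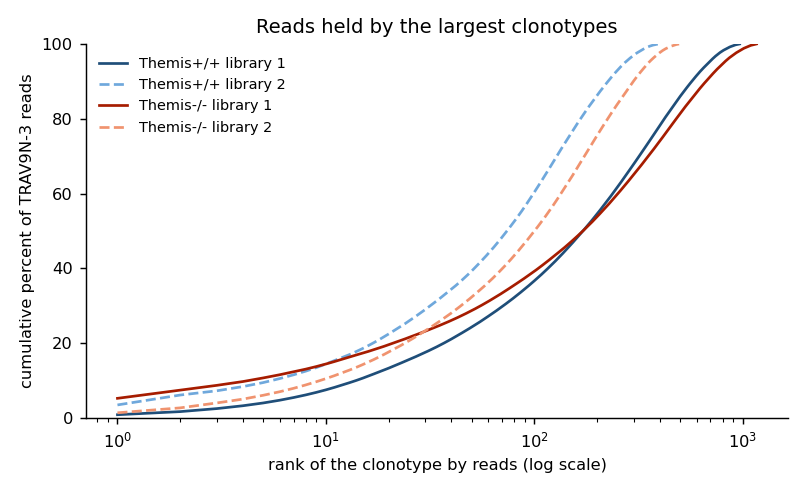
Cumulative percent of the TRAV9N-3 reads of each library against the rank of its clonotypes by reads, on a log scale, with solid lines for the libraries numbered 1 and dashed lines for those numbered 2. The curves of the same number lie closer to each other at high ranks than those of the same genotype, because the libraries numbered 1 hold 966 and 1164 clonotypes and those numbered 2 hold 397 and 495.

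Of 250 clonotypes with at least 10 reads in 2 or more libraries, 0 were called between the genotypes (edgeR quasi-likelihood test, 0% in either direction, smallest adjusted p = 0.761). Even a very large fitted difference was not called. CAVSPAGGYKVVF, with 50 and 51 reads in Themis+/+ and 0 in Themis-/-, had a log2 difference of -8.57 ± 2.64 (SE) and was not called. Clonotypes not called are therefore not shown to be equal. At an unadjusted p under 0.05 there were 7 in edgeR and 11 in DESeq2, which called 0 after adjustment. Both Themis-/- libraries were above both Themis+/+ libraries for 39 of the 250 (15.6%) and below them for 35 (14%). These counts include 16 clonotypes with 0 reads in both Themis+/+ libraries and 13 with 0 in both Themis-/- libraries. Such clonotypes passed the filter through 1 genotype alone, so the filter itself sets their libraries apart.

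Several nucleotide sequences can encode 1 clonotype. A clonotype had 1.11 and 1.07 sequences on average in Themis+/+ and 1.12 and 1.07 in Themis-/- (exact permutation test, p = 0.667), and the larger libraries had the higher values. Over the 4 libraries together, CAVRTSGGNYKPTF had 5 sequences, the highest number, which 1 other clonotype also reached. They are printed because they show how different trimming and added bases, in capitals, give the same residues.
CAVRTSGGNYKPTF, sequence 1: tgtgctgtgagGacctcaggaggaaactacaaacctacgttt
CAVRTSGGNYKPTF, sequence 2: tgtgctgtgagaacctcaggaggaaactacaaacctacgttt
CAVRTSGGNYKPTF, sequence 3: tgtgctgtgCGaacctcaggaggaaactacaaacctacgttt
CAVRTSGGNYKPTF, sequence 4: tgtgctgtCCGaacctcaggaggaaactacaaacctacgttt
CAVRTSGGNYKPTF, sequence 5: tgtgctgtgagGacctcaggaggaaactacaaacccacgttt

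Sequence 2, which has no added base, was found in all 4 libraries, with 10 and 37 reads in Themis+/+ and 64 and 15 in Themis-/-. Sequence 1, with 1 added base, was in 3 libraries, with 144 and 42 reads in Themis+/+ and 5 in Themis-/- library 1. Sequences 3 and 4, with 2 and 3 added bases, were each in 1 library, with 41 and 16 reads. Sequence 5 had 2 reads and differs from sequence 1 in the germline part of J, where a PCR or sequencing error cannot be told apart from a separate cell.

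The last question was what marks the clonotypes that both genotypes share. Of 2346 clonotypes, 386 were found in both genotypes (16.5%, 95% Wilson interval 15 to 18), which is 31.1% of the 1240 of Themis+/+ and 25.9% of the 1492 of Themis-/-. The share fell to 9.06% without Themis+/+ library 1 and to 10.7% without Themis-/- library 1. By nucleotide sequence it was 10.8%.

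Shared clonotypes were also counted per pair of clonotypes, which does not fully remove library size. Per 10000 pairs of clonotypes taken 1 from each of 2 libraries, 3.21 were the same in the 2 libraries of Themis+/+ and 2.90 in those of Themis-/-. Between genotypes the value was 2.40 for the libraries numbered 1, 3.66 for those numbered 2, and 3.2 and 3.03 for the pairs of different number. The lowest value came from the larger libraries and the highest from the smaller ones. Each pair within a genotype joins a library numbered 1 to one numbered 2. Its values of 3.21 and 2.90 are therefore read beside the 3.2 and 3.03 of the pairs of different number. Nucleotide sequences with 4 or more N nucleotides were shared in at most 8 cases in any pair of libraries. Over clonotypes shared by a pair, Spearman's rho of their reads was 0.239 and 0.148 within genotypes (123 and 167 clonotypes) and 0.257 to 0.350 between them (72 to 270 clonotypes). These are descriptions across clonotypes, which are not replicates.

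Shared clonotypes had fewer N nucleotides. In Themis+/+ their clones had 1.54 and 1.27 N nucleotides on average, against 2.97 and 2.85 in clones of clonotypes found in Themis+/+ alone. In Themis-/- the values were 1.47 and 1.16 against 2.82 and 2.90. The difference had the same direction in 4 of 4 libraries, with a mean of -1.53 ± 0.171 (SD, n = 4 libraries, exact sign-flip permutation test, p = 0.125, the smallest possible). The shared clonotypes are the same ones in both genotypes, so the 4 libraries are not independent in this comparison.

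The share of clones found in the other genotype was lower at higher N in all 4 libraries, apart from a small rise beyond 5 N nucleotides in Themis-/- library 2. Of the clones without N, 65.6% and 69.4% in Themis+/+ and 60.2% and 69.4% in Themis-/- were found in the other genotype. With 2 N nucleotides it was 40.4% and 37.4% against 32.3% and 29.2%. With 5 it was 5.56% and 4.76% against 6.85% and 0%, the last from 0 of 27 clones, whose 95% Wilson interval reaches 12.5%. Counting only the library of the other genotype with the other number, 38.9% and 64.7% of the clones without N were found in Themis+/+ and 31.3% and 64.0% in Themis-/-, while 1.85% and 4.76% against 2.74% and 0% were found with 5 N nucleotides.

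Other features of the joint moved with N. Shared clonotypes had lost fewer bases from J, with 2.41 and 2.33 in Themis+/+ against 3.44 and 3.57 in clonotypes of that genotype alone, and 2.31 and 2.29 in Themis-/- against 3.44 and 3.58. They had lost fewer from V in 4 of 4 libraries too, by 0.523 bases in the mean. A clone with no added base at all was 17.1% and 17.8% of the shared ones in Themis+/+ against 4.5% and 5.74%, and 17.9% and 22.9% in Themis-/- against 5.75% and 6.51%. CDR3 length was little different, with a mean difference of -0.0542 residues that was negative in 3 of 4 libraries (exact sign-flip permutation test, p = 0.375). By length, 19.9% of the 14-residue clonotypes, 17.8% of the 13-residue and 11% of the 15-residue clonotypes were shared.

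**Figure D5:**
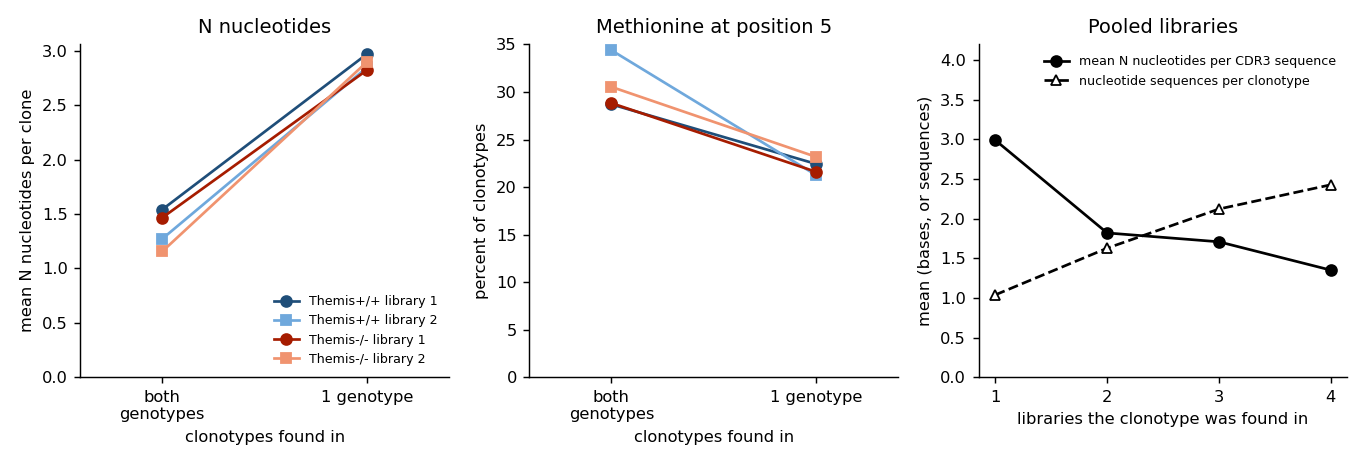
Left and middle, mean N nucleotides per clone and percent of clonotypes with methionine at position 5 in each library, for clonotypes found in both genotypes and in that library's genotype alone, with a line for each library. Right, mean N nucleotides (bases) and nucleotide sequences per clonotype, by the number of libraries a clonotype was found in. All 4 lines rise on the left and fall in the middle, and on the right N fell from 2.99 to 1.35, while sequences per clonotype, at 1.04 to 2.43, are summed over the libraries and so grow with their number.

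Within a library, shared clonotypes had 1.27 and 1.15 nucleotide sequences on average in Themis+/+ against 1.04 and 1.02 in the others, and 1.28 and 1.15 in Themis-/- against 1.06 and 1.03. Methionine at position 5 was more frequent in shared clonotypes in 4 of 4 libraries. It was in 28.7% and 34.4% of the shared clonotypes of Themis+/+ against 22.4% and 21.2% of those found there alone, and in 28.8% and 30.5% against 21.6% and 23.2% in Themis-/-. Serine at position 4, the residue of the V end, was in 71.0% of the shared clonotypes, in 60.3% of those of Themis+/+ alone and in 62.3% of those of Themis-/- alone. Summed hydropathicity of 14-residue CDR3s was higher in shared clonotypes in 4 of 4 libraries, with 7.36 and 6.70 against 5.47 and 5.86 in Themis+/+ and 6.35 and 8.58 against 6.11 and 5.56 in Themis-/-. The mean difference was 1.5 ± 1.22 (SD, n = 4 libraries), and in Themis-/- library 1 it was 0.246. Most clonotypes of 1 genotype alone were found in 1 library. Of those in both its libraries, 17.9% (28 clonotypes, Themis+/+) and 31.7% (60, Themis-/-) had this methionine. It was in 24.2% of the 231 clonotypes found in 1 library of each genotype. Hydropathicity was 5.21, 8.48 and 6.53 in these classes. Presence in both genotypes was thus not separated from presence in more libraries.

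Shared clonotypes were larger. They held 28.4 and 39.6 reads on average in Themis+/+, against 14.5 and 26.6 for the clonotypes found there alone, and 28.7 and 29.8 against 11.6 and 17.7 in Themis-/-. Together they made up 49.6% and 49.4% of the TRAV9N-3 reads in Themis+/+ and 49.0% and 46.2% in Themis-/-. Being found in a library depends on reads, so size and sharing are not independent measures. N was also compared within classes of reads, the highest of which has no upper bound. Sizes still differ within a class, and the part of size in the difference was not tested. In 12 of 12 classes (4 libraries, each with 1 to 5, 6 to 15 and 16 or more reads), shared clonotypes had fewer N nucleotides, with differences of -1.12 to -1.88 bases.

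By J segment the shared part ran from none of the 27 clonotypes of TRAJ45 and the 22 of TRAJ42 to 25.2% of the 127 of TRAJ12 and 24.2% of the 124 of TRAJ15, beside 16.5% of all. Of the 158 clonotypes of TRAJ9, 19.6% were shared, and of the 128 of TRAJ22, 22.7%. In each of the 17 segments with 10 or more shared clonotypes these had fewer N nucleotides than the others of the segment. The widest gap of those named here was in TRAJ12, with 1.43 against 3.28. The mean distance of the J segment from TRAJ61 was 45.5 kb in shared clonotypes, 41.1 kb in those of Themis+/+ alone and 41.2 kb in those of Themis-/- alone.

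The clonotypes found in all 4 libraries were 47 in number. They held 15.3% and 23.6% of the TRAV9N-3 reads in Themis+/+ and 20.6% and 19.2% in Themis-/-. A sequence without N was present for 30 of the 47 and a sequence without any added base for 20. Methionine stood at position 5 in 18 of them, 38.3%, beside 21.6% of the clonotypes found in 1 library. Summed hydropathicity was 6.45 in the 17 of them with 14 residues, below the 7.05 of the 141 such shared clonotypes. They used 17 J segments, with 8 clonotypes in TRAJ12 and 4 each in TRAJ22, TRAJ23 and TRAJ7.

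Among them the shares of reads overlapped between genotypes in most cases named. The untrimmed TRAJ12 clonotype held 0.723% and 2.65% in Themis+/+ and 2.19% and 1.32% in Themis-/-. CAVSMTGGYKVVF held 0.760% and 1.14% against 0.701% and 0.947%, and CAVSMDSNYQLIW 0.733% and 1.06% against 1.02% and 0.603%. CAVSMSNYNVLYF was the exception among the 6, with 0.572% and 0.262% against 1.29% and 0.706%, where both Themis-/- libraries were higher.

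The clonotypes of both libraries of 1 genotype and of neither library of the other were few, 28 in Themis+/+ and 60 in Themis-/-. Their sequences had 1.73 and 2.04 N nucleotides on average, below the 2.96 and 2.88 of all clonotypes of that genotype alone, beside 1.77 for the 231 clonotypes found in 1 library of each genotype. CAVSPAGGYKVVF had 50 and 51 reads in Themis+/+ and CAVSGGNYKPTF had 38 and 55, each from different sequences in the 2 libraries. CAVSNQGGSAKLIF had 7 and 61 reads. In Themis-/-, the TRAJ6 clonotype had 122 and 5 reads, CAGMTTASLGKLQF 4 and 66, again from different sequences, and the TRAJ16 clonotype 33 and 41. Their absence from the libraries of the other genotype holds at a depth where 3 reads are 0.0157% to 0.0279% of the TRAV9N-3 reads.

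Libraries that had no part in forming these classes were read for them too. In the sorted Vα3.2+ thymic libraries of either genotype, 38.3% (95% Wilson interval 33.6 to 43.3) of the 386 shared clonotypes were found, against 7.14% (5.60 to 9.07) of the 854 of Themis+/+ LN alone and 6.69% (5.36 to 8.32) of the 1106 of Themis-/- LN alone. In the libraries of all LN CD8 cells it was 16.1% against 2.46% and 1.99%, and in those of all CD8 thymocytes 15.8% against 2.22% and 3.07%. The shared clonotypes were found at the higher rate in 12 of these 12 libraries, from 2.07% to 23.3% a library. Whether these libraries came from the same mice as the sorted LN libraries the sources used here do not say.

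The sorted thymic libraries held 68 and 239 TRAV9N-3 clonotypes in Themis+/+ and 76 and 291 in Themis-/-, and the numbers found are read beside these sizes. Of the 854 clonotypes of Themis+/+ LN alone, 32 were in the sorted Themis+/+ thymic libraries and 37 in those of Themis-/-. Of the 1106 of Themis-/- LN alone, 34 were in Themis+/+ and 43 in Themis-/-, and of the 386 shared, 83 and 100. The 95% Wilson intervals of these shares overlap, at 2.67% to 5.24% and 3.16% to 5.91% for the first class and at 2.21% to 4.27% and 2.90% to 5.20% for the second.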

How the data were processed

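TCRα cDNA from sorted cells was made by template switching, amplified in 2 rounds of PCR without molecular identifiers and read on a MiSeq. The authors extracted clonotypes with MiXCR (no version is stated in the sources used here). The submitters' processing notes name CASAVA 1.4 and the build mm9. The authors deposited raw read counts for each CDR3 sequence, and each sequence's fraction of the library, which equals count over total in all 4 libraries. In the tables analysed, 6.16% to 9.65% of the clone numbers are skipped. TRAV and TRAJ germline sequences and coordinates are GENCODE M21 on GRCm38, matched by name for 43 of 43 J segments. A mismatch to the germline was passed over where 5 bases after it matched, and P stretches could reach 4 bases. This definition of N was chosen after the tables had been seen, because the aligner's breakpoints extend into added bases. The germline parser and the count test were tested on simulated data.

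TRAV9N-3 reads of 10771 to 19109 a library set the floors given. J segments and clonotypes were tested with edgeR 4.0.16 (quasi-likelihood, TMM, at least 10 reads in 2 libraries, Benjamini-Hochberg adjusted p under 0.05), in R 4.3.3, and DESeq2 1.42.0 was also run. Other measures had two-sided exact permutation tests over libraries, and shared against private clonotypes had sign flips over 4 libraries (Python 3.11.15, scipy 1.17.1). The members and lists were chosen with earlier results of these data known. Named J segments are the 6 with most clones and the 3 in each direction with the largest fitted difference among segments whose libraries lay apart. Named CDR3s are the 6 largest in all 4 libraries, the 3 largest in both libraries of 1 genotype and neither of the other, the largest of each library and 1 of the 2 tied for the most nucleotide sequences, the first in alphabetical order. TRAJ45, in the account of sharing, was named after its values were seen. Equal numbers were not taken to pair libraries.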

Additional observations from a re-analysis of the deposited data

Results flagged for a closer look

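TRAV9-4, which the comparisons do not use, gave reads in each sorted LN library. For Themis+/+ its share of all reads was 1.13% and 19.9%, and for Themis-/- it was 1.56% and 33.7%, so it was high in the library numbered 2 of both genotypes. Its germline end differs from that of TRAV9N-3, and 44 and 87 CDR3 sequences of the libraries numbered 2 carried it, against 8 and 9 of those numbered 1. The label does not name this segment, and the cause of the difference between the numbers was not tested.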

How the results depend on the processing

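Of 143 alternatives over 16 results, 120 kept direction and call. Merging TRAV9N-3 with TRAV9D-3, the aligner's own N and counting P nucleotides as added were chosen after seeing the data. In the J segment and clonotype tests every alternative, DESeq2, other size factors, no filter, every V segment and the replicate block included, called 0 features, as did leaving out any library, which assumes that a lone library varies like the other group. All 33 alternatives for clonotypes of both genotypes minus those of 1 genotype kept their direction, those that leave out a library included. The genotype differences near 0 changed sign. For mean N per clone the difference was -0.00943 with P nucleotides counted as added and -0.0985 to 0.149 leaving out 1 library. For the percent of clones without N it was -0.0250 with every V segment, -0.207 without sequences of 1 read and -2.21 to 2.56 leaving out 1 library. For mean CDR3 length it was -0.0148 weighted by reads and -0.0590 to 0.0702 leaving out 1 library. Leaving out 1 library also gave -0.000652 to 0.636 for hydropathicity, -0.196 to 1.12 kb for the mean J position, -1.95 to 4.95 percentage points for the 10 largest clonotypes, -0.0208 to 0.0297 for nucleotide sequences per clonotype and -35 to 62 for the number of clonotypes holding 50% of the reads. The share of clonotypes in both genotypes moved to 10.8% by nucleotide sequence and was 9.06% to 15.7% leaving out 1 library. The number of clonotypes holding 50% of the reads differed by -1 with every V segment. The cause of these changes was not tested. The labels do not say what the numbers 1 and 2 mark, and TRAV9-4 reads and clonotype numbers moved with them, but 2 pairs are too few to take them as a pairing. The deviations of same-numbered libraries correlated at -0.0159 over the 47 clonotypes in all 4 libraries and -0.244 over 43 J segments, and with the replicate block 0 segments and 0 clonotypes were called. Depth limits rare J segments and clonotypes, where a few clones set a value.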
